A study of Mus musculus with 18 samples.

Results

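The 10 genes described here are the mouse hepcidin genes and genes tied to hepcidin level or to iron transport and storage. They are Hamp, Hamp2, Bmp6, Id1, Tfr2, Trf, Tfrc, Slc40a1, Fth1 and Ftl1. They were chosen by gene symbol and are 10 of the 32285 genes in the count table. All 10 were among the 13356 genes tested. Livers of 18 mice of the B6D2F1 strain and labelled wild-type genotype were sequenced as poly(A) RNA, 6 from each of 3 groups. Space and Ground pups were F1 offspring sacrificed at 10 weeks of age. Their fathers were sterile W (Kit mutant) recipients whose testes had received germline stem (GS) cells, cultured sperm stem cells of DBA/2 background carrying an actin-promoter EGFP transgene. Space pups descend from GS cells that spent 6 months frozen aboard the International Space Station, and Ground pups from cells frozen as long on Earth, and the mothers were C57BL/6 females. BDF1 mice were untreated wild-type controls, and their age is not given separately in the labels. Both pup groups thus share the GS cell culture, freezing and transplantation that the controls lack. How many GS cell lines, fathers or litters the pups came from is not given in the labels.

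Hepcidin is a small peptide hormone that the liver secretes. It binds ferroportin, the only known iron exporter of cells, and triggers its removal, so that less iron enters the blood. BMP6, made mainly by liver sinusoidal endothelial cells, raises hepcidin through SMAD proteins in hepatocytes, and IL-6 raises it through STAT3. The mouse has a second hepcidin gene, Hamp2, and the level of both genes in mouse liver is known to depend on sex and strain. Whether Hamp2 acts on iron was not tested here, so a change of Hamp2 RNA is not a change of iron control.

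Each group fell into 2 sets of libraries. Replicates 1 to 3 of all groups held 0 to 187 counts of Xist and 1822 to 2482 counts of 4 Y-linked genes summed (Ddx3y, Eif2s3y, Kdm5d and Uty). Replicates 4 to 6 held 12218 to 21557 and 0 to 26, respectively. The labels do not give the sex, but the paper states that male and female offspring were analysed. By the counts above, replicates 1 to 3 were male and replicates 4 to 6 were female in every group. No batch is given in the labels, so whether anything besides sex separated the sets cannot be told. Groups were therefore compared within each set. Library totals ranged from 15407450 to 20562351 counts. In replicates 4 to 6, Alb took 17.6% to 24.1% of the counts of the pups and 6.72% to 8.03% of those of BDF1 mice. Space-4, Ground-5 and Ground-6 stood apart with 45233, 44874 and 30924 CPM (counts scaled to library size with TMM factors) of Serpina6, the corticosteroid carrier of blood, against 741 to 1002 CPM in the other replicates 4 to 6. Hepatocyte markers were present throughout, with all 8 genes of that list counted in every group and set. In whole liver, fewer cells of a type and less RNA per cell cannot be told apart.

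Hamp and Hamp2 lie near each other on the minus strand of chromosome 7 (mm10, GENCODE M21). Hamp spans 30942368 to 30944032 and Hamp2 spans 30922372 to 30924681. The 250 bases before each RefSeq transcription start are printed because the genes moved differently between groups and the data below compare them. The windows are chr7:30944030-30944279 for Hamp and chr7:30924182-30924431 for Hamp2 (GRCm38.p6, minus strand, RefSeq). The Hamp2 window also lies in the first intron of the longer transcript Hamp2-202. Capitals mark GGCGCC, the core of the BMP response element, with the hexamer aligned to it in Hamp2, and the STAT motif TTCNNNGAA. Promoters were matched by symbol for 7 of the 10 members.
Hamp: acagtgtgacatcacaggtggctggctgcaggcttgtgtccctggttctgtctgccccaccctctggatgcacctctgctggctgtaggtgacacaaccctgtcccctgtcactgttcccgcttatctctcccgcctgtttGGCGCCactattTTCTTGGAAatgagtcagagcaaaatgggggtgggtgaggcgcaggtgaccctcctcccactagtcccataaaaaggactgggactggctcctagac
Hamp2: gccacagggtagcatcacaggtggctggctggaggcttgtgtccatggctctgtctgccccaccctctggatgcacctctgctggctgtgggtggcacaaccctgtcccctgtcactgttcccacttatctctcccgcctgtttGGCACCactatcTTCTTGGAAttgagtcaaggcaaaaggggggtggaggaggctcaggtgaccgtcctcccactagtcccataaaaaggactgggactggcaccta
The windows were identical at 227 of 247 aligned bases (91.9%). One of the 20 substitutions, G145A, fell in the hexamer (Hamp base first, positions counted from 1 at the 5′ end of the window), which reads GGCACC in Hamp2. GGCGCC began 109 bases before the start of Hamp and had no match on either strand of the Hamp2 window. It was found in 9.59% of the 32851 promoter windows of the same length. TTCTTGGAA stood in both windows, 97 bases before the start of Hamp and 94 before that of Hamp2, and 7.02% of all windows held the motif. A match describes letters and not a binding site.

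The RNAs were also alike. The first GENCODE transcripts of Hamp and Hamp2 were identical at 388 of 410 aligned bases (94.6%), with a longest shared run of 87 bases, and 16.6% of the 50-base words of the Hamp transcript occurred in that of Hamp2. How the counting treated reads that fit both genes is not given in the sources used here, so the split of counts between Hamp and Hamp2 is uncertain.

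Iron-responsive elements are RNA hairpins through which iron regulatory proteins hold back translation when they sit in a 5′UTR and stabilise the RNA when they sit in a 3′UTR. They are shown because counts measure RNA only: a change of translation through the 5′ elements would not be seen, while a change of stability through the 3′ elements could be. A search for the loop CAGTGN closed by 5 base pairs (G-U allowed) with a C before the stem found 1 element each in the 5′UTR of Fth1 (chr19:9982733-9982760, plus strand), Ftl1 (chr7:45459779-45459806, minus strand) and Slc40a1 (chr1:45925465-45925492, minus strand). It found 4 in the 3′UTR of Tfrc, at chr16:32631220-32631247, chr16:32631599-32631626, chr16:32631664-32631691 and chr16:32631711-32631738, plus strand (GENCODE M21, mm10). Capitals mark the loop.
Fth1: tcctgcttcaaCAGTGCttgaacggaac
Ftl1: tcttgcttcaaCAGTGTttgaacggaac
Slc40a1: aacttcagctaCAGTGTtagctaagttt
Tfrc element 1: attatcggaagCAGTGCcttccataatt
Tfrc element 2: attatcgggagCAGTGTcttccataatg
Tfrc element 3: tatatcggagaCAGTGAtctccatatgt
Tfrc element 4: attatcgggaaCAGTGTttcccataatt

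Per kilobase of exon, the mean CPM over all 18 libraries was highest for Trf (5918 ± 3099, SD), followed by Ftl1 (2010 ± 316), Hamp2 (1894 ± 1167), Hamp (562 ± 508), Fth1 (481 ± 39.8), Tfr2 (96.5 ± 11.4), Slc40a1 (11.5 ± 4.97), Id1 (6.47 ± 8.39), Tfrc (4.96 ± 1.87) and Bmp6 (0.390 ± 0.188). In this order Ftl1, Hamp2, Hamp and Fth1 each overlapped with the next within 1 SD, as did Slc40a1, Id1 and Tfrc. The order changed between groups and sets. Hamp2 lay above Ftl1 in BDF1 4 to 6 (3775 against 1945) and Ground 4 to 6 (2256 against 1964). It lay below Hamp and Fth1 in BDF1 1 to 3 (378 against 407 and 463). Hamp lay below Fth1 in both Space sets (391 against 490 and 194 against 522). The same held in Ground 4 to 6 (267 against 484) and BDF1 1 to 3 (407 against 463). Id1 lay below Tfrc in BDF1 4 to 6 (4.43 against 6.81). In replicates 1 to 3 it did so in every group (0.923 to 1.61 against 4.37 to 5.45). In CPM, without the division by length, Hamp2 lay above Hamp in BDF1 1 to 3 (means of 220 and 167). Serum transferrin was thus the most abundant of these RNAs and the BMP ligand the least, with 5 to 71 counts per library.

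Hamp2 was the member with the largest differences in replicates 1 to 3. In BDF1 mice 1 to 3 it stood at 207, 277 and 177 CPM. In Space pups 1 to 3 it stood at 960, 649 and 940 CPM. In Ground pups 1 to 3 it stood at 622, 1432 and 622 CPM. Both pup groups lay above all 3 controls without overlap. The log2 change (± SE) was 1.95 ± 0.34 for Space (3.85-fold, adjusted p = 0.00435) and 2.02 ± 0.34 for Ground (4.05-fold, adjusted p = 0.00756) in edgeR's quasi-likelihood test with Benjamini-Hochberg adjustment over all genes tested. These comparisons share the BDF1 libraries. Hamp2 was the 1 member of 10 called in each of them (adjusted p under 0.05), where 4.64% and 1.92% of all genes tested were called for Space and Ground, respectively. Both calls held under all 9 alternatives that kept every replicate or left out the 3 Serpina6-high libraries, with log2 changes of 1.82 to 2.02 and 1.66 to 2.02. Space and Ground pups differed by -0.07 ± 0.32 for Hamp2. None of the 10 members was called between them in replicates 1 to 3 by edgeR or DESeq2, and 0.00749% of genes (1 gene) were called, with 1292 genes at an unadjusted p under 0.05.

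In replicates 4 to 6, Hamp2 was high in all groups. BDF1 mice 4 to 6 held 1847, 2251 and 2505 CPM. Space pups 4 to 6 held 1064, 1067 and 1312 CPM. Ground pups 4 to 6 held 1141, 834 and 1969 CPM. Here the pups lay lower, although Ground-6 fell within the range of the controls. The log2 changes of -0.94 ± 0.33 (Space, adjusted p = 0.0691) and -0.74 ± 0.33 (Ground, adjusted p = 0.135) did not pass the test. Of 9 alternatives, 4 called the change in Space (total-count scaling, no filter, DESeq2 and voom, with adjusted p of 0.00536 to 0.0909 over the 9) and 1 that in Ground (total-count scaling, 0.00483 to 0.204 over the 9). Without the 3 Serpina6-high libraries the changes were -0.89 and -0.94 (adjusted p = 0.0891 and 0.192).

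The set difference of Hamp2 was thus large in controls. Replicates 4 to 6 of BDF1 mice exceeded replicates 1 to 3 by 3.32 ± 0.36 on the log2 scale (9.99-fold, adjusted p = 9.67e-06). The same contrast gave 0.43 ± 0.33 in Space pups (adjusted p = 0.368) and 0.56 ± 0.33 in Ground pups (adjusted p = 0.265), and neither passed. The difference between the sets itself differed from that of the controls by -2.89 ± 0.47 in Space (adjusted p = 0.00363) and -2.76 ± 0.47 in Ground (adjusted p = 0.00704). Hamp2 was the 1 member of 10 called in each of these tests of the difference, where 3.19% and 2.74% of all genes were called. All 9 alternatives called both. No member was called for the difference of Space and Ground between sets, and neither was any gene (0%, with 1038 genes at an unadjusted p under 0.05 and 0 members called by DESeq2).

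**Figure D1:**
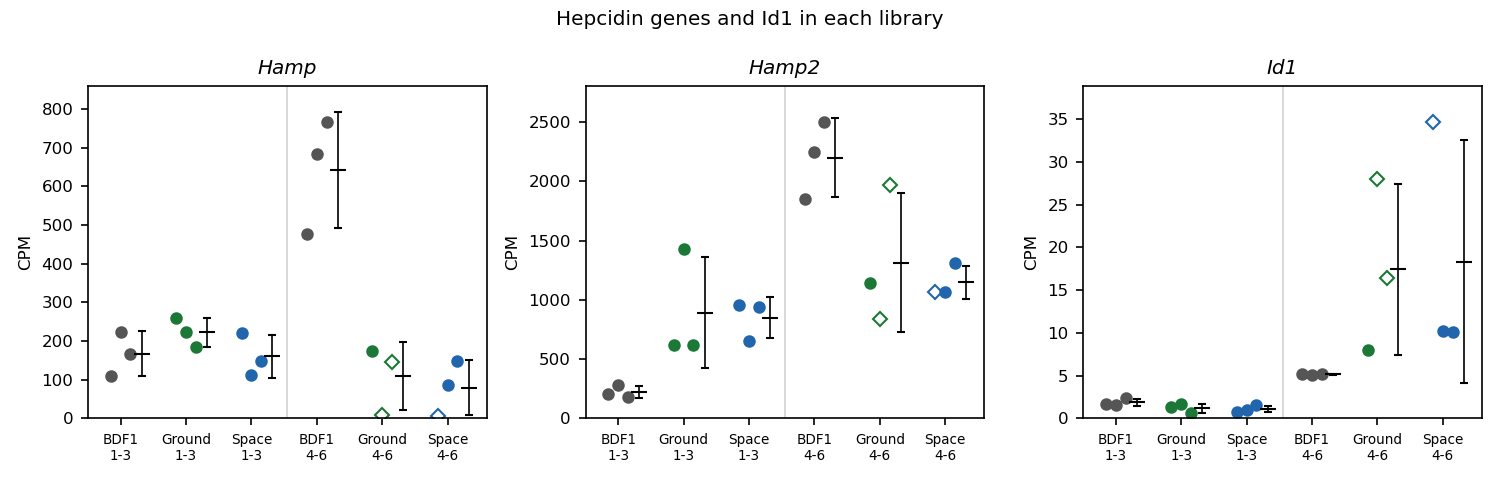
CPM (linear axis) of Hamp, Hamp2 and Id1 in each of the 18 livers, by group and replicate set, with the mean ± SD of each 3 libraries in black. Open diamonds are Space-4, Ground-5 and Ground-6, the libraries high in Serpina6. In replicates 4 to 6 all 6 pups lay below the BDF1 mice for Hamp and above them for Id1.

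Hamp, the main hepcidin gene, did not separate the groups in replicates 1 to 3. BDF1 mice held 109, 225 and 167 CPM. Space pups held 221, 112 and 149 CPM. Ground pups held 259, 223 and 185 CPM. The ranges overlapped, with log2 changes of -0.05 ± 0.80 for Space (adjusted p = 0.979) and 0.41 ± 0.80 for Ground (adjusted p = 0.852). The ratio of Hamp2 to Hamp per kilobase was 0.984 ± 0.313 in BDF1, 3.86 ± 0.716 in Space and 2.86 ± 1.48 in Ground livers (SD, n = 3). It was taken with exon lengths of 583 and 410 bases. With the 420 bases of the first Hamp2 transcript each ratio would be higher.

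In replicates 4 to 6, Hamp was high in controls and low in both pup groups. BDF1 mice held 477, 685 and 768 CPM. Space pups held 5.70, 85.0 and 148 CPM. Ground pups held 175, 9.41 and 145 CPM. The lowest control exceeded the highest of the 6 pups. The log2 change was -3.01 ± 0.86 in Space (8.05-fold lower, adjusted p = 0.0334), and in Ground it was -2.55 ± 0.85, which did not pass (adjusted p = 0.0516) but did under 5 of 9 alternatives (adjusted p = 0.0127 to 0.169 over the 9). Within the pups Hamp spanned 30.6-fold from lowest to highest, against 1.61-fold among the 3 BDF1 mice. Space-4 held 73 Hamp counts and Ground-5 held 143, while the other 4 pups held 1413 to 2992.

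The call for Hamp depended on the fit. It was lost in Space when only the 6 libraries compared were fitted (log2 change -3.02, adjusted p = 0.135) and, one at a time, without Space-4, Space-5, BDF1-4, BDF1-5 or BDF1-6 (-3.19 to -2.46, adjusted p = 0.0594 to 0.0837). Without Space-4, Ground-5 and Ground-6 together, an alternative chosen after the data were seen, Hamp was called in both groups. The log2 change was then -2.46 ± 0.36 in Space (adjusted p = 0.00102) and -1.88 ± 0.46 in Ground (adjusted p = 0.0246), for which 1 Ground library was left and its spread was taken from the other groups. In those fits 9.62% and 7.56% of 14122 genes were called.

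In BDF1 mice Hamp of replicates 4 to 6 lay above that of replicates 1 to 3 without overlap, by 1.95 ± 0.83 on the log2 scale, which did not pass (adjusted p = 0.128). It was called when the fit held the BDF1 libraries alone (adjusted p = 0.000664). In pups the same contrast was -1.01 ± 0.81 in Space and -1.02 ± 0.81 in Ground (adjusted p = 0.406 and 0.432). The difference between sets, against controls, was -2.95 ± 1.16 and -2.97 ± 1.15 (adjusted p = 0.174 and 0.189), and of 9 alternatives it passed only without the 3 Serpina6-high libraries (-2.40, adjusted p = 0.00601, and -2.29, adjusted p = 0.0423).

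Marker lists were also compared between pups and BDF1 mice 4 to 6, where 11.9% (Space) and 15.2% (Ground) of all genes were called. Cell division markers summed to 13.1 to 84.8 CPM in Space and 33.5 to 54.8 in Ground pups against 3.89 to 5.04 in BDF1, and all 10 tested of 11 were called higher in both groups. Erythroid and blood markers summed to 202 to 719 and 102 to 588 CPM against 32.3 to 88.4, and 4 of the 5 tested, all of them globin genes (Hba-a1, Hba-a2, Hbb-bs and Hbb-bt), were called higher in both. Kupffer cell markers summed to 195 to 257 and 167 to 272 CPM against 96.4 to 209. Of these, 1 of 9 (Clec4f) was called, in Space, which is near the 11.9% of all genes. Of 10 pancreas markers 5 or 6, Ins1 and Ins2 among them, had no count in pups 4 to 6, and 7 had none in BDF1 4 to 6. Cela1 held most of the sum of that list and was called lower in both pup groups, with means of 14.5 CPM in Space, 9.10 in Ground and 35.3 in BDF1. The other of the 2 pancreas markers tested went the other way, far upward, but was not called in either group. The median log2 change of the 2 was therefore 2.80 in Space and 3.12 in Ground. The part of these cells in the level of Hamp was not tested.

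Bmp6, the ligand that drives hepcidin, was lower in Space pups. In replicates 1 to 3, BDF1 mice held 1.64, 1.92 and 2.87 CPM. Space pups held 0.823, 1.01 and 1.02 CPM. Ground pups held 1.71, 1.32 and 1.77 CPM. Space lay below BDF1 and below Ground without overlap. In replicates 4 to 6, BDF1 mice held 2.26, 3.18 and 1.36 CPM. Space pups held 0.390, 1.02 and 0.982 CPM, again below all controls. Ground pups held 1.92, 1.51 and 0.690 CPM and overlapped with them. The log2 change in Space was -1.16 ± 0.40 in replicates 1 to 3 (adjusted p = 0.111) and -1.47 ± 0.41 in replicates 4 to 6 (2.77-fold lower, adjusted p = 0.0292). In Ground it was -0.42 ± 0.38 and -0.71 ± 0.38 (adjusted p = 0.634 and 0.228).

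Over all 6 replicates, Bmp6 of Space pups was 0.874 ± 0.249 CPM against 2.21 ± 0.708 in BDF1 (SD, n = 6), without overlap. The fit on all replicates gave -1.32 ± 0.28 (2.49-fold lower, adjusted p = 0.0145), and all 9 alternatives and every fit without 1 library called it. It was the 1 of 10 members called there, where 3.67% of all genes were called. No member was called over all replicates for Ground against BDF1 (3.53% of genes called) or for Space against Ground (0%, with 1220 genes at an unadjusted p under 0.05 and 0 members called by DESeq2). DESeq2 called 1 member, Slc40a1, for Ground against BDF1. Space against Ground gave -0.76 ± 0.28 for Bmp6 (adjusted p = 0.441), so the pup groups were not shown to differ. Sinusoidal endothelial markers summed to 107 to 134 CPM in Space pups 4 to 6 and to 100 to 197 in BDF1. In replicates 1 to 3 they summed to 110 to 113 CPM in Space, below the 130 to 150 of BDF1 without overlap, and to 125 to 183 in Ground. The median log2 change of this list over all replicates was -0.33 in Space and 0.04 in Ground, against 0.01 and 0.02 for all genes. Over all replicates, 2 of these 9 markers, the receptor genes Clec4g and Fcgr2b, were called lower in Space (log2 -0.82 and -0.63), and 1, Stab2, was called higher in Ground (0.98). The part of endothelial cells in the Bmp6 level was not tested. The call of replicates 4 to 6 was lost without Space-4, BDF1-4 or BDF1-5 (-1.47 to -1.15, adjusted p = 0.0715 to 0.136), with only the 6 libraries compared (-1.48, adjusted p = 0.11) and without the 3 Serpina6-high libraries (-1.18, adjusted p = 0.06).

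Id1, a direct SMAD target whose level usually follows BMP signalling in liver, was higher in pups of replicates 4 to 6, where Hamp was lower. BDF1 mice held 5.17, 5.06 and 5.19 CPM. Space pups held 34.7, 10.2 and 10.1 CPM. Ground pups held 7.99, 28.0 and 16.4 CPM. All 6 pups lay above the controls, and the 2 highest, Space-4 and Ground-5, were the 2 lowest for Hamp. The log2 change was 1.82 ± 0.47 in Space (3.54-fold, adjusted p = 0.0203) and 1.76 ± 0.47 in Ground (3.39-fold, adjusted p = 0.0186). In Space the call was lost without Space-4 (0.98, adjusted p = 0.14), BDF1-4 (adjusted p = 0.0679) or BDF1-5 (adjusted p = 0.0753). In Ground it was lost without Ground-5 (1.24, adjusted p = 0.0992), BDF1-4 (adjusted p = 0.0575), BDF1-5 (adjusted p = 0.0624) or BDF1-6 (adjusted p = 0.057). Without the 3 Serpina6-high libraries it was 0.98 in Space (adjusted p = 0.0322) and 0.64 in Ground (adjusted p = 0.27).

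In replicates 1 to 3, Id1 was scarce, with 11 to 45 counts per library. BDF1 mice held 1.73, 1.54 and 2.35 CPM, Space pups 0.764, 0.943 and 1.50, and Ground pups 1.27, 1.63 and 0.573. Neither change passed (-0.79 ± 0.61 and -0.69 ± 0.59, adjusted p = 0.52 and 0.616). Between sets Id1 was the largest change among the members in pups, with 4.07 ± 0.56 in Space (16.7-fold, adjusted p = 8.49e-05) and 3.90 ± 0.54 in Ground (15.0-fold, adjusted p = 0.000105). In BDF1 it was 1.45 ± 0.52 (adjusted p = 0.0701). The difference between sets against controls was 2.61 ± 0.76 and 2.45 ± 0.75 and did not pass (adjusted p = 0.0712 and 0.0918). Of 9 alternatives, 4 called it in Space (adjusted p = 0.00576 to 0.165 over the 9) and 3 in Ground (0.0116 to 0.187). The set change of BDF1 was called under 5 of 8 alternatives (adjusted p = 0.000999 to 0.0692).

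Between sets, 1 of 10 members was called in BDF1 (Hamp2, 14.6% of genes), 1 in Space (Id1, 21.9%) and 3 in Ground (Id1, Trf and Slc40a1, 18.3%). Between pups and controls in replicates 4 to 6, 3 of 10 were called in Space (Hamp, Bmp6 and Id1, 11.9% of genes) and 3 in Ground (Id1, Trf and Slc40a1, 15.2%). With 10 members each of these counts lies within 2 genes of what the same share of all genes would give. The median log2 change of the members was 0.12 in Space and 0.08 in Ground, against 0.01 for all genes in both. Between Space and Ground pups 4 to 6 no member was called, and 0.0225% of genes (3 genes) were. There 1852 genes had an unadjusted p under 0.05, and DESeq2 called 1 member, Slc40a1.

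**Figure D2:**
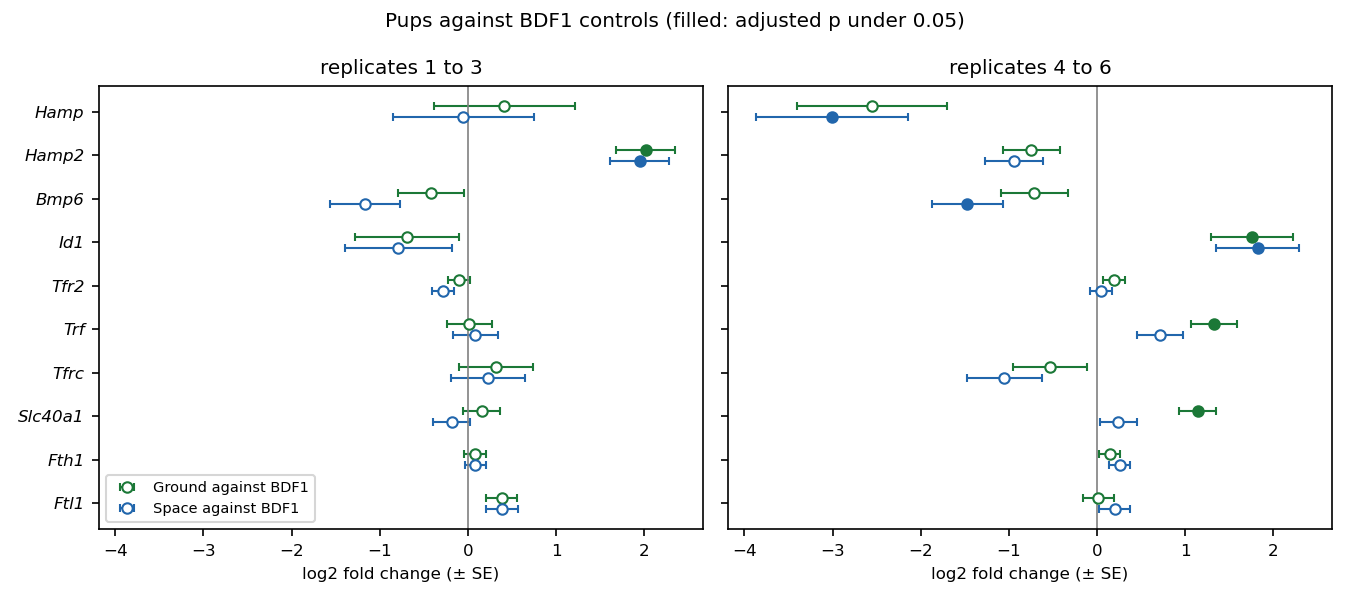
Log2 fold change ± SE of the 10 genes in Space (blue) and Ground (green) pups against BDF1 mice, in replicates 1 to 3 (left) and 4 to 6 (right), from 1 fit over all 18 libraries. Filled points passed an adjusted p of 0.05. Hamp2 stood out on the left at 1.95 and 2.02, and on the right Hamp lay at -3.01 and -2.55 while Id1 lay at 1.82 and 1.76.

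Transferrin receptor 2 (Tfr2), an iron sensor of hepatocytes, varied little. Its 18 values ranged from 350 to 517 CPM. No comparison called it in the fit over all libraries, with log2 changes against BDF1 of -0.28 ± 0.13 (Space) and -0.11 ± 0.13 (Ground) in replicates 1 to 3 and 0.04 ± 0.13 and 0.19 ± 0.13 in replicates 4 to 6. Tfr2 of Space pups 1 to 3 was called lower with total-count scaling (-0.41, adjusted p = 0.0462) and with voom (-0.29, adjusted p = 0.0231). The changes in replicates 4 to 6 turned to -0.37 and -0.30 and were called when libraries were scaled by total counts, which also moved the median of all genes to -0.39 and -0.46.

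Transferrin (Trf), the iron carrier of blood, was called higher in Ground pups 4 to 6. BDF1 mice 4 to 6 held 14348, 14236 and 15604 CPM. Space pups held 30935, 19211 and 22359 CPM. Ground pups held 21339, 41360 and 48171 CPM. All 6 pups lay above the controls, and the highest 3 were Space-4, Ground-5 and Ground-6. The log2 change was 1.33 ± 0.26 in Ground (2.51-fold, adjusted p = 0.00351) and 0.71 ± 0.26 in Space (adjusted p = 0.0783). Without the 3 Serpina6-high libraries it was 0.54 in Ground (adjusted p = 0.0904) and 0.49 in Space (adjusted p = 0.0502). In replicates 1 to 3 all 9 livers lay between 11361 and 15715 CPM. Trf therefore differed between sets in Ground pups (1.42 ± 0.26, adjusted p = 0.00118), while in Space it was 0.74 ± 0.26 (adjusted p = 0.051) and in BDF1 0.11 ± 0.26. The set change of Space was called under 5 of 7 alternatives (adjusted p = 0.00948 to 0.0823), and DESeq2 and voom called Trf higher in Space than in BDF1 4 to 6 (adjusted p = 0.0206 and 0.0437). With the Ground libraries fitted alone the set change of Ground was no longer called (adjusted p = 0.0578).

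Transferrin receptor 1 (Tfrc), which takes iron-loaded transferrin into cells, split the pups of replicates 4 to 6. Space pups held 34.8, 11.9 and 14.8 CPM. Ground pups held 9.97, 38.4 and 39.1 CPM. Space-4, Ground-5 and Ground-6 lay at 34.8 to 39.1 and the other 3 at 9.97 to 14.8, below every other library of the series. BDF1 mice 4 to 6 held 57.7, 42.0 and 26.7 CPM, and the 9 livers of replicates 1 to 3 held 24.5 to 39.8. Over all libraries the changes against BDF1 4 to 6 did not pass, at -1.05 ± 0.43 (adjusted p = 0.115) and -0.53 ± 0.42 (adjusted p = 0.422). With the same libraries, total-count scaling called Tfrc lower in Space (-1.51, adjusted p = 0.00727) and in Ground (-1.11, adjusted p = 0.0238), and voom called it lower in Space (-1.54, adjusted p = 0.00595). Without the 3 Serpina6-high libraries, left out after the data were seen, the changes were -1.66 ± 0.27 in Space (adjusted p = 0.00208) and -2.07 ± 0.37 in Ground (adjusted p = 0.00543). The Ground value then rests on 1 library, Ground-4, which held the lowest Tfrc of the series.

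Ferroportin (Slc40a1), the target of hepcidin, was higher in Ground pups 4 to 6. They held 196, 230 and 136 CPM. Space pups held 134, 83.0 and 85.3 CPM. BDF1 mice held 77.5, 96.5 and 81.2 CPM. Ground lay above both other groups, and Space overlapped with BDF1. Ground exceeded BDF1 by 1.14 ± 0.21 (adjusted p = 0.00266), a call that all 9 alternatives and every fit without 1 library kept. The log2 change was 0.68 to 1.21 over the 9 alternatives and was 1.21 without the Serpina6-high libraries. Space differed from BDF1 by 0.24 ± 0.21 (adjusted p = 0.479) and from Ground by -0.90 ± 0.21 (adjusted p = 0.154). The latter was called without Space-4 (-1.16, adjusted p = 0.0211). Ground pups 4 to 6 also exceeded Ground pups 1 to 3, which held 87.5, 83.7 and 107 CPM, by 1.02 ± 0.21 (adjusted p = 0.00327).

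The ferritin genes, which encode the heavy (Fth1) and light (Ftl1) chains of the iron store, were called in no comparison of the fit over all libraries. Fth1 ranged from 1446 to 1958 CPM and Ftl1 from 2016 to 3551 CPM over the 18 livers. In replicates 1 to 3, Ftl1 of BDF1 mice (2100 to 2332 CPM) lay below that of Space (2687 to 3136) and Ground pups (2654 to 3001). The changes were 0.39 ± 0.18 and 0.38 ± 0.18 and did not pass (adjusted p = 0.238 and 0.3). Of the alternatives, voom called Ftl1 higher in Space pups 1 to 3 (0.41, adjusted p = 0.0192). The largest Fth1 change against BDF1 was 0.26 ± 0.12, in Space pups 4 to 6 (adjusted p = 0.172). Fth1 of Ground pups 4 to 6 turned from 0.14 to -0.34 under total-count scaling and was then called (adjusted p = 0.033). The same scaling called Fth1 lower in Ground replicates 4 to 6 than in 1 to 3 (-0.46, adjusted p = 0.00693). It moved the median of all genes to -0.46 and -0.43 in these comparisons, respectively.

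**Figure D3:**
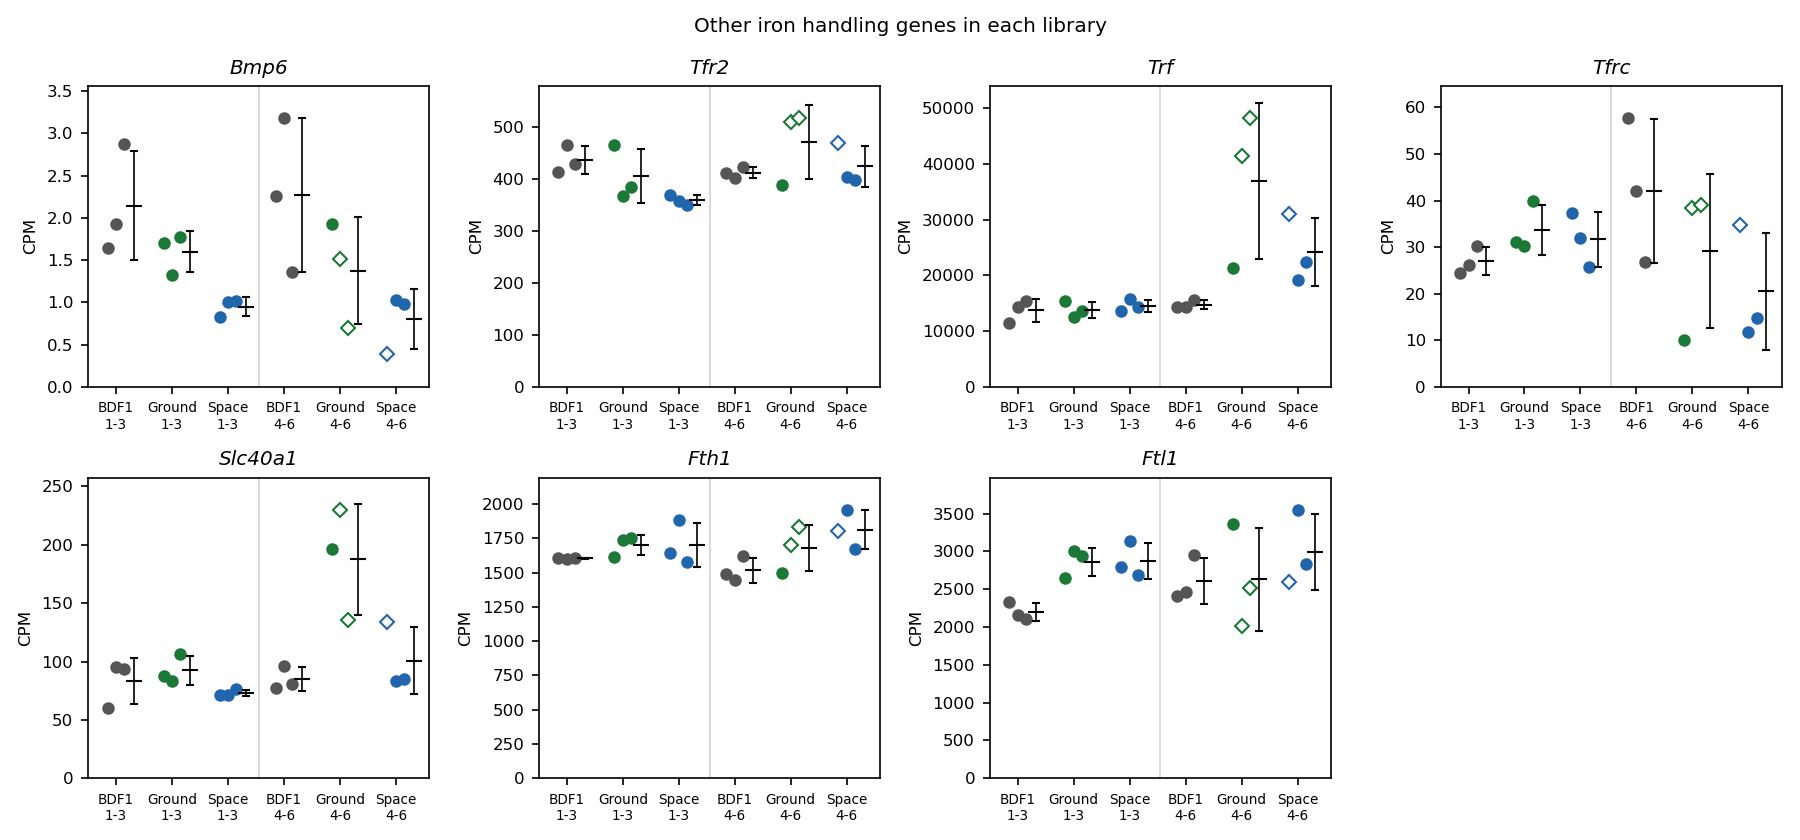
CPM (linear axes) of Bmp6, Tfr2, Trf, Tfrc, Slc40a1, Fth1 and Ftl1 in each of the 18 livers by group and replicate set, with the mean ± SD of each 3 libraries in black and the Serpina6-high libraries as open diamonds. Trf of the 6 pups 4 to 6 lay at 19211 to 48171 CPM, above every other library, and Tfrc of 3 of them lay at 9.97 to 14.8.

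Across libraries, Id1 tended to be high where Hamp was low. Over the 18 deviations from the means of group and set (log2 CPM), Pearson's r was -0.75 and Spearman's rho -0.54. Without Space-4 and Ground-5, the libraries farthest from the median of Hamp, r was -0.48 (n = 16). For Hamp and Tfrc r was -0.64 (rho -0.48), and -0.40 without those libraries. For Hamp and Hamp2 r was 0.44 (rho 0.51) and then 0.34. For Hamp and Bmp6 r was 0.27 (rho 0.24) and then 0.15. These describe 18 livers that share library depth and, in part, reads of similar sequence.

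**Figure D4:**
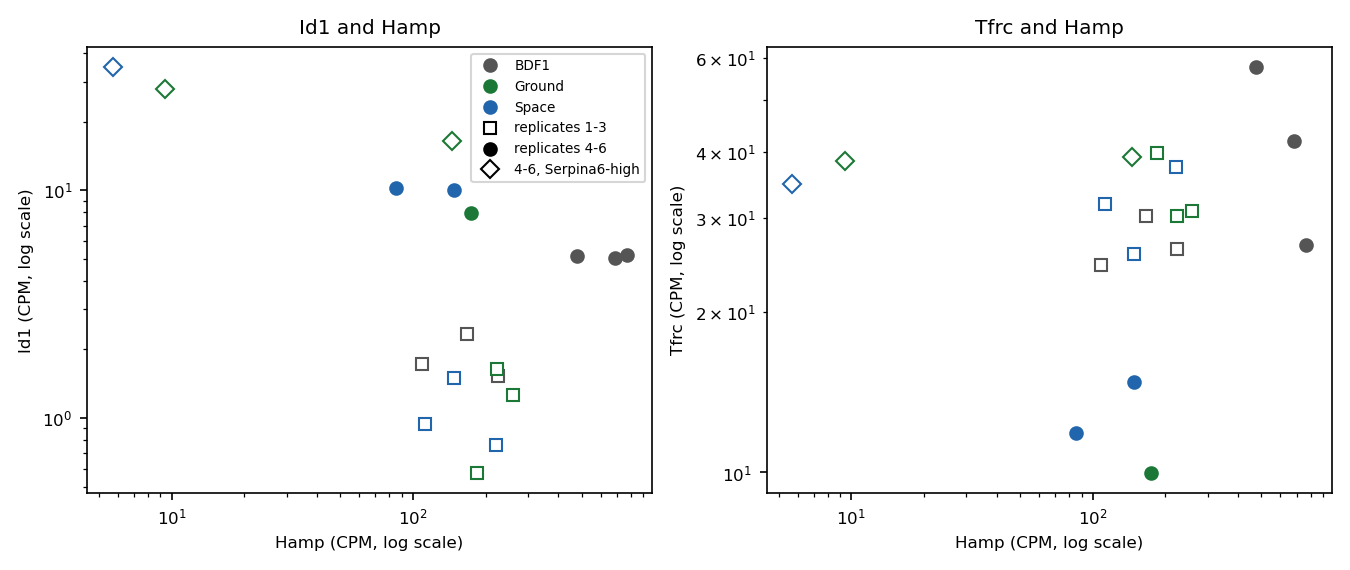
Id1 (left) and Tfrc (right) against Hamp, in CPM on log axes, for 18 livers. Colours give the group, open squares replicates 1 to 3, filled circles replicates 4 to 6 and open diamonds the Serpina6-high libraries of replicates 4 to 6. Space-4 and Ground-5 sit at Hamp of 5.70 and 9.41 with Id1 of 34.7 and 28.0.

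Deviations were also compared among the 11731 genes that averaged 1 CPM or more. The genes most like Hamp were Fgfr4, an FGF receptor of hepatocytes (r = 0.95), Gm11844 (0.95) and Gpt2, an alanine aminotransferase (0.94). For Hamp2 they were the nucleoside transporter Slc29a1 (0.90), the RNA-binding protein gene Hnrnpa1 (0.89) and Pstk, a kinase of selenocysteine synthesis (0.89). For Id1 they were Crip1 (0.96), 2810402E24Rik (0.94) and Phldb1 (0.93). Spearman's rho with Hamp was 0.89 for Fgfr4, 0.86 for Gm11844 and 0.78 for Gpt2. All these genes were picked as the highest r among the genes compared. The values include Space-4 and Ground-5, the libraries farthest from the median of Hamp.

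Genes around hepcidin were described by lists chosen with earlier results in view. Their counts in replicates 4 to 6 stand beside the 11.9% (Space) and 15.2% (Ground) of all genes called there, and with lists of 3 to 14 genes 1 or 2 calls are near that share. Of the 14 BMP and SMAD inputs, Bmp2, a second endothelial BMP ligand, was called lower (-1.17 ± 0.24, adjusted p = 0.00635) and the co-receptor gene Hjv higher (0.71 ± 0.12, adjusted p = 0.00192) in Space pups 4 to 6, and Hfe was called lower in Ground (-0.40 ± 0.09, adjusted p = 0.00812). These are 2 of 14 and 1 of 14, near or below the 11.9% and 15.2% of all genes. The median of the list was -0.10 in Space and 0.06 in Ground, against 0.01 for all genes. Of the 8 other SMAD targets none was called higher against BDF1 in either set. Id3 was called lower in all 4 of these comparisons, with log2 changes of -1.67 (Space) and -0.95 (Ground) in replicates 1 to 3 and -0.79 and -0.54 in replicates 4 to 6. Id2 was also lower in Space pups 1 to 3 (-1.95 ± 0.27, adjusted p = 0.000794) and Smad9 in Space pups 4 to 6 (-1.86 ± 0.30, adjusted p = 0.00164). These are 2 of 8 in Space and 1 of 8 in Ground in each set. In replicates 1 to 3, 4.64% (Space) and 1.92% (Ground) of all genes were called. With 8 genes, none called higher lies near such shares. Against BDF1, Id1 and Id3 thus moved in opposite directions in pups 4 to 6. Between the sets of pups they moved the same way. Id3 was called higher in replicates 4 to 6 than in 1 to 3 in Space (1.07, adjusted p = 0.000756) and Ground (0.59, adjusted p = 0.0305), as was Smad6 (1.95 and 1.48). Id2 was called higher (2.17) and Smad9 lower (-1.70) in Space. These are 3 higher and 1 lower of 8 in Space and 2 higher in Ground, where 21.9% and 18.3% of all genes were called, and none of the 8 was called between the sets of BDF1.

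Of the 8 IL6 and STAT3 inputs, the receptor gene Il6ra (1.17 and 1.59) and the transcription factor gene Creb3l3 (0.77 and 0.79) were called higher in Space and Ground pups 4 to 6, respectively, and Jak1 was called lower in Space (-0.57), so that 3 of 8 were called in Space (11.9% of all genes) and 2 of 8 in Ground (15.2%). Of 12 acute phase markers, 2 were called higher in Space (Apcs and Orm1) and 6 in Ground, led by Itih4 (2.38 ± 0.61, adjusted p = 0.0162), and none lower, against 11.9% and 15.2% of all genes. In BDF1 mice, 4 of the 12 (Saa1, Fga, Fgg and Fgb) were called lower in replicates 4 to 6 than in 1 to 3 (14.6% of all genes), while Hamp2 was called higher.

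Of the 12 tested genes of iron uptake, storage and export outside the members, the ferroxidase gene Cp (1.79 ± 0.54, adjusted p = 0.0404, and 2.61 ± 0.55, adjusted p = 0.00542) and the zinc and iron importer gene Slc39a14 (0.82 and 0.97) were called higher in Space and Ground pups 4 to 6, and the reductase gene Steap3 lower (-0.67 and -1.03). Steap2 was also lower in Space (-1.11). Cp averaged 3480 ± 3130 CPM (SD) in Space pups 4 to 6 against 1007 ± 121 in BDF1, so the Space livers varied widely. The alternatives given here cover the members and not the genes of these lists. The hemoglobin receptor gene Cd163, of macrophages, was 1 of 10 scavenging genes called higher in both (1.22 and 1.52). Of the 3 iron regulatory genes, Aco1 was called lower in Ground (-0.51). Of the 11 mitochondrial iron genes, Fdx1 and Abcb8 were called lower in Ground, near the 15.2% of all genes, and none in Space, and none of the 8 heme synthesis genes was called in either.

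The labels call the livers of a group biological replicates only by number. The p-values rest on the spread of livers within group and replicate set, or within group over all replicates, estimated over all groups fitted. They treat the livers as independent. The paper reports fewer fertile recipients in each pup group than livers were sequenced, so some pups of a group shared a father. The labels do not tell which, and the fits do not account for it. With only the 6 libraries of a comparison in the fit, no member was called in Space pups 4 to 6 and 2 (Trf and Slc40a1) were called in Ground pups 4 to 6, so these calls rest partly on the spread estimated over all groups.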

How the data were processed

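The members and all gene lists were chosen with earlier results of these data known. The authors deposited raw counts of reads per gene. The submitters' processing notes name bcl2fastq 2.20, cutadapt 4.6, HISAT2 2.2.1, HTSeq 2.0.2 and build mm10. Strand setting and how reads matching several genes were counted are not given in the sources used here. From these counts, edgeR 4.0.16 (R 4.3.3) scaled libraries by TMM, kept 13356 genes by filterByExpr and fitted the 6 means of group and replicate set over 18 libraries (quasi-likelihood test, Benjamini-Hochberg adjusted p under 0.05). Comparisons over all replicates fitted the group alone. CPM are edgeR's counts per TMM-scaled library size; 3 counts, the floor, correspond to 0.134 to 0.234 CPM and cover counting error only. The procedure was tested on simulated data with 200 changed genes. No replicates were duplicates, with a chi-square per gene of at least 9.78 within groups.

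Alternatives were DESeq2 1.42.0 and its size factors, total-count scaling, no filter, limma 3.58.1 voom with quality weights, a replicate block, leaving out the 10 most abundant genes, only the libraries compared, leaving out each library and, chosen after the data were seen, leaving out the 3 pup libraries with Serpina6 above 30000 CPM. Same-numbered libraries deviated together from the group means (r of 0.195 to 0.637, n = 18 pairs), since the numbers carry the sets, but not from the means of group and set (-0.60 to 0.25, median -0.04). The labels name no shared litter or day. The numbers therefore pair libraries only over all replicates, where the block left the 1 call (Bmp6) in place. Named were all 10 members, up to 5 called genes per list and comparison by size of change (a few more are counted only), and the 3 genes most like Hamp, Hamp2 and Id1. Sequences came from RefSeq (GRCm38.p6) and GENCODE M21, aligned with Biopython 1.88.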

Additional observations from a re-analysis of the deposited data

Results flagged for a closer look

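In groups of 6 livers, 5 of the 30 combinations of gene and group examined held a library far from the others, measured as the gap to its nearest neighbour divided by the whole range of the group. For independent livers drawn from 1 distribution, chance gives about 1 in 20 groups, or 1.5 of 30. Space-4 was such a library 3 times, as the lowest for Bmp6 (0.685 of the range) and the highest for Id1 (0.721) and for Slc40a1 (0.775). Ground-4 was the lowest for Tfrc (0.679), and BDF1-1 was the lowest for Trf (0.677). Groups of 6 hold both replicate sets, whose levels differ, and the 30 combinations reuse the same livers. The 5 found can therefore not be read as an excess over the 1.5.

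The change of Hamp2 against BDF1 differed between the replicate sets, by -2.89 on the log2 scale in Space and by -2.76 in Ground (edgeR's test of the difference, adjusted p = 0.00363 and 0.00704). Hamp2 lay above the controls in all 6 pups of replicates 1 to 3 and below the mean of the controls in all 6 pups of replicates 4 to 6. The cause was not tested.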

How the results depend on the processing

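Counts of members called that moved by over 1.5 times are given here. In replicates 4 to 6 smaller moves were from 3 to 4 in Space (no filter) and in Ground (no filter, DESeq2 and voom) and from 3 to 2 in Ground (replicate block and only the compared libraries). Total-count scaling, which moved the median of all genes in replicates 4 to 6 to -0.39 (Space) and -0.46 (Ground), gave 2 in Space against BDF1 in replicates 1 to 3, 6 (Space) and 9 (Ground) in replicates 4 to 6, 2 for the Ground difference between sets and 2 for Space over all replicates. DESeq2 gave 5 in Space 4 to 6, 1 between Space and Ground 4 to 6, 2 and 2 between the sets of BDF1 and Space, 2 and 4 for the Space and Ground differences between sets and 1 for Ground over all replicates. DESeq2's size factors gave 2 between the sets of Space. Voom gave 4 and 6 in Space 1 to 3 and 4 to 6, 2 and 3 between the sets of BDF1 and Space, and 2 and 3 for the differences. No filter gave 2 between the sets of BDF1 and 2 and 3 for the differences. The fits on the compared libraries gave 2 and 0 in Space 1 to 3 and 4 to 6, 3 and 2 between the sets of BDF1 and Space, and 2 for the Space difference. Leaving out the Serpina6-high libraries gave 2 in Space 1 to 3, 3 and 3 between the sets of BDF1 and Space, and 4 and 4 for the differences. Leaving out each library gave 0 to 5 in Space 4 to 6, 2 to 4 in Ground 4 to 6, 0 to 1 between Space and Ground 4 to 6, 1 to 3, 1 to 2 and 3 to 4 between the sets of BDF1, Space and Ground, 1 to 2 and 1 to 4 for the differences and 0 to 1 for Ground over all replicates. Leaving out each library did not move the counts of the other comparisons.

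Signs turned for genes near 0. Tfr2 in Space 4 to 6 was -0.37 with total-count scaling, -0.041 without the Serpina6-high libraries and -0.038 to 0.086 leaving out each library. In Ground 4 to 6, Tfr2 was -0.30 and -0.077 and Fth1 -0.34 and -0.012 under these settings, in the same order. Between the sets of Ground, Fth1 was 0.049 with voom and -0.087 to 0.054, and Tfrc -0.48 to 0.20, leaving out each library. The causes were not tested.

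The replicate block left 0 members called in Space 4 to 6 (Hamp -3.20, adjusted p = 0.0677, Bmp6 -1.39, adjusted p = 0.0566, and Id1 1.74, adjusted p = 0.0706) and ended the call of Id1 in Ground 4 to 6 (1.78, adjusted p = 0.0547). Within a set the numbers do not pair the libraries, and over all replicates the block changed no call. Between sets no block could be fitted, and leaving out the 10 most abundant genes gave no value for Trf, which is one of them. Depth limits Bmp6 (5 to 71 counts) and Id1 in replicates 1 to 3 (11 to 45 counts) most.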
